A study of Mus musculus with 8 samples.

Results

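The 9 genes Kit, Flt3, Cd34, Hoxa9, Meis1, Myb, Erg, Mecom and Hlf, known as as regulators of blood stem and progenitor cells, were followed in sorted leukaemic cells of the RUNX1-RUNX1T1 model of acute myeloid leukaemia (AML), in mice given vehicle or AG636. The first 3 encode receptors and a surface protein, Hoxa9 and Meis1 are homeobox genes, and the other 4 encode further transcription factors. The 9 genes were chosen by name from the 54838 genes of the count table, and all 9 were in it. RNA from 4 Vehicle samples and 4 AG636 samples was read at the 3′ end of transcripts (QuantSeq), where 1 read stands for about 1 transcript whatever its length. AG636 inhibits DHODH, an enzyme of de novo pyrimidine synthesis, and was given by oral gavage at 100 mg/kg, b.i.d.; the sources used here differ on the length of treatment before the sort.

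Both groups shared the leukaemia and differed in the treatment. The cells were on a C57BL/6 background and carried a retroviral AML1/ETO9a construct marked with GFP together with a luciferase construct that holds an activated mutant Nras, so the controls carry the oncogenes too. They grew in Ptprca recipients, which keep blood cells of their own; the labels call the recipients irradiated, while the methods of the study name irradiation for its other models. Cells were taken from bone marrow and spleen, and the labels do not say which tissue gave which sample, nor whether each sample is a separate mouse. A legend of the study counts fewer mice a group for this RNA-seq than the 4 samples used here, and neither source says whether samples share a mouse. The p-values therefore measure the spread between these samples, which may come from fewer mice. The study describes the sorted cells as high in cKit and low or negative for CD11b, so the protein of one of the 9 genes defined the gate.

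RUNX1-RUNX1T1 joins the DNA-binding domain of RUNX1 to a co-repressor protein and blocks maturation of myeloid progenitors. Kit is the receptor for stem cell factor and Flt3 the receptor for Flt3 ligand; both are tyrosine kinases that signal through the Ras, PI3-kinase and STAT pathways. Hoxa9 and Meis1 form a homeodomain complex on DNA with Pbx proteins and are highly active in AML driven by MLL fusions, while Myb is a transcription factor that progenitors and many leukaemias need to proliferate.

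Libraries held 6120030 to 7162036 counts, so 3 counts of a gene corresponded to 0.434 to 0.479 CPM (counts-per-million values, scaled to the library size adjusted by TMM factors). Vehicle sample 4 stood apart from the other Vehicle samples, with a chi-square per degree of freedom over genes of 9.31 to 13.2 against each of them, while the other Vehicle pairs gave 3.90 to 4.59. The AG636 pairs gave 14.1 to 25.0. Of the markers of other cells, Itgam, the gene of CD11b, had at most 4 counts in any sample, and Cdh5, Cxcl12, Cd209a and Gp1bb, which mark endothelium, stroma, dendritic cells and platelet precursors, had between 0 and 1 count. Other genes of those lists were detected, with Pf4, a platelet chemokine, at means of 2.52 CPM in Vehicle and 16.0 CPM in AG636 (limma-voom adjusted p = 0.0943), and with at most 121 counts for Bst2 and 42 for Kdr. Granulocyte-monocyte progenitor genes (Mpo, Elane and 5 others) summed to 10.8 to 15.8 CPM in Vehicle and 11.01 to 29.3 CPM in AG636. Erythroid genes (12 of 12 tested, with Gata1 and Klf1 among them) summed to 6572 to 10510 CPM in Vehicle and 9041 to 11060 CPM in AG636. Mast cell and basophil genes (8 of 12 tested, with Hdc, Ms4a2 and Gata2 the most abundant) summed to 2103 to 2728 CPM and 1512 to 3750 CPM. Ptprc, which encodes the pan-leukocyte antigen CD45, was at 2.01 to 9.25 CPM over the 8 samples, while Laptm5, another leukocyte gene, was at 603 to 961 CPM. B cell genes summed to 16.3 to 38.5 CPM in Vehicle and 25.7 to 109 CPM in AG636, with all 6 tested genes above 0 in log2 fold change and 1 of them, Cd79a, called higher (1.83 on the log2 scale, at most 22 counts, limma-voom adjusted p = 0.0266). Of the erythroid genes, Hbb-bt, a globin, was called higher (0.90 on the log2 scale, adjusted p = 0.0238). Over all genes tested, 5.47% were called higher. Neutrophil genes summed to 44.7 to 106 CPM in Vehicle and 16.6 to 209 CPM in AG636. All 5 tested genes were below 0 in log2 fold change and none was called. The mean of the sums was nonetheless higher in AG636 (104 CPM) than in Vehicle (83.0 CPM). AG636 samples 2 and 4 had sums of 168 and 209 CPM, and samples 1 and 3 of 16.6 and 22.8 CPM, so the direction depends on the scale. The sums in Vehicle and AG636 were 14.0 to 18.4 and 15.2 to 64.0 CPM for megakaryocyte, 19.7 to 22.8 and 17.2 to 39.9 CPM for monocyte, 11.4 to 16.9 and 15.0 to 29.3 CPM for dendritic cell, 8.52 to 15.3 and 10.5 to 25.2 CPM for T and NK cell, and 3.54 to 5.25 and 3.19 to 11.5 CPM for stromal genes. With 4 samples against 4 and 11 lists, an exact permutation test of these sums gives even 1 fully separated list an adjusted p of 0.314, so it says little. The part of other cells in the values below was not tested.

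The 9 genes covered the whole range from abundant to undetected in the leukaemic cells. In Vehicle, Myb averaged 447 ± 47.6 CPM and Kit 163 ± 9.62 CPM (SD, n = 4). Hlf followed at 16.0 ± 3.04 CPM, Cd34 at 8.63 ± 4.35 CPM and Meis1 at 1.72 ± 0.89 CPM. Erg, Flt3 and Mecom averaged 0.373, 0.224 and 0.151 CPM, under the level of 3 counts, and Hoxa9 had 0 counts in all 8 samples. These means put Myb 2.74-fold above Kit, Kit 10.2-fold above Hlf, Hlf 1.86-fold above Cd34 and Cd34 5.02-fold above Meis1. Division by length is given only as an alternative, since the reads come from the 3′ end. Per kilobase of the gene's exons the order was the same. The Vehicle means were 50.0 CPM per kilobase for Myb, 18.3 for Kit, 2.40 for Hlf, 1.18 for Cd34 and 0.163 for Meis1. On that scale Myb stood 2.73-fold above Kit, Kit 7.63-fold above Hlf, Hlf 2.03-fold above Cd34 and Cd34 7.25-fold above Meis1, and the 4 Vehicle samples of each of these genes did not overlap with those of the next. Without division by length, Hlf and Cd34, and Cd34 and Meis1, overlapped. Meis1 and Erg overlapped on both scales, and the order among Erg, Flt3 and Mecom rests on 0 to 5 counts per sample.

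**Figure D1:**
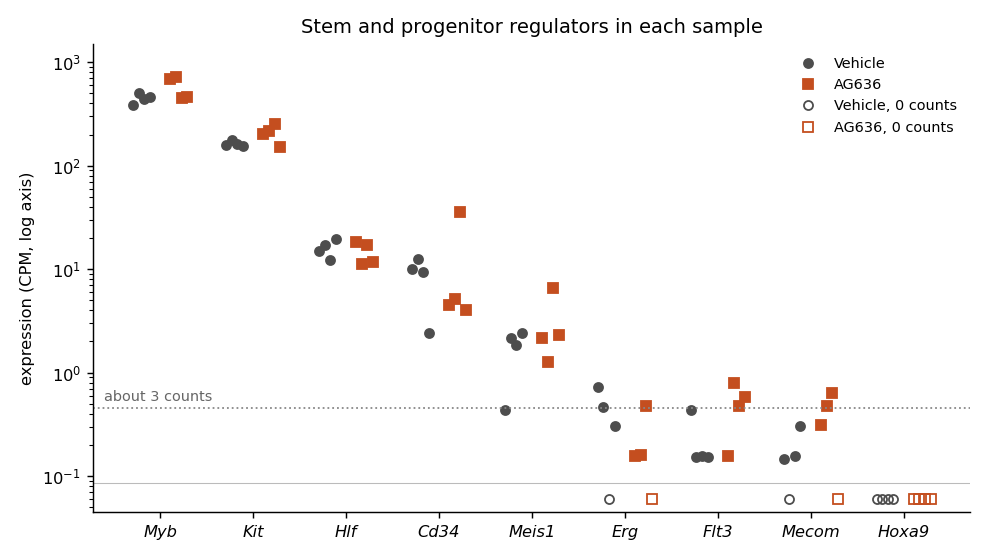
Expression of the 9 regulators in each sample, as CPM on a log axis, with Vehicle as grey circles and AG636 as orange squares. Open symbols below the grey line mark samples with 0 counts, and the dotted line marks the level of about 3 counts. Myb and Kit lie above 150 CPM in every sample, while Erg, Flt3 and Mecom lie around or below the dotted line and Hoxa9 is at 0 throughout.

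The levels of the AG636 samples were set against those of the Vehicle samples to ask whether the inhibitor altered this programme within the cKit gate. By flow cytometry of this model, the study reports fewer leukaemic cells with cKit and more with CD11b in marrow after AG636. Cells without cKit lie outside the gate, so the values below do not describe them. In the fit of all genes (limma-voom, Benjamini-Hochberg adjusted p under 0.05), none of the 9 genes passed the threshold in either direction, where 14.0% of the 10911 genes tested did (5.47% as higher and 8.49% as lower in AG636). Of the 9, 5 were tested (Kit, Cd34, Meis1, Myb and Hlf) and 4 (Flt3, Hoxa9, Erg and Mecom) had too few counts. Kit and Myb had unadjusted p-values under 0.05, as did 3351 of the 10911 genes tested. Both edgeR and DESeq2 also called 0 of the 9, though DESeq2 gave no adjusted p for Cd34. The DESeq2 adjusted p was 0.069 for Kit and 0.081 for Myb. For none of the 5 tested genes were the groups free of overlap, against 22.2% of all tested genes, and 5 genes are few to set against that share. The groups also overlapped for the other 4, which had too few counts to be tested. Over all genes, 597 were called higher and 926 lower in AG636, a split that turned to 918 higher and 571 lower with library size alone. Another scaling did not turn the direction of any of the 5 tested genes.

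**Figure D2:**
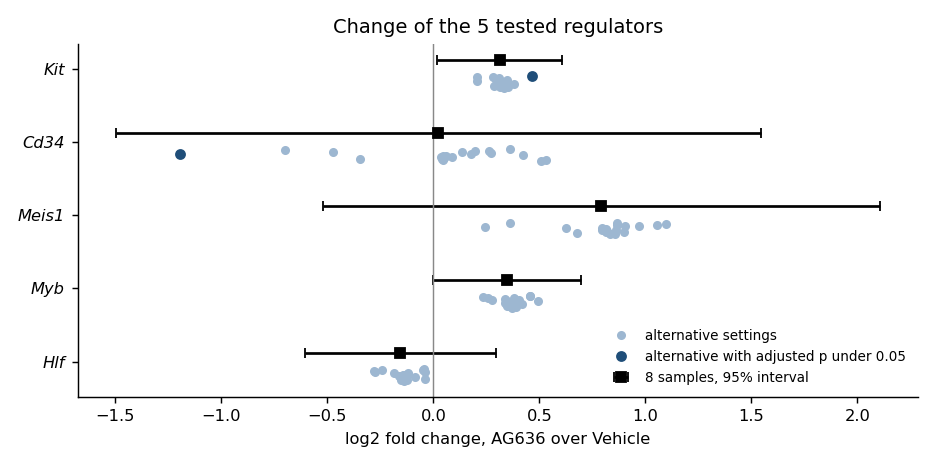
Log2 fold change of the 5 tested regulators in AG636 over Vehicle. Black squares with bars give the estimate from all 8 samples and its 95% interval, pale points the alternative settings, and dark points the alternatives in which the gene had an adjusted p under 0.05. Kit and Myb stay on the right of 0 in every setting, Hlf stays on the left, and Cd34 falls on both sides.

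Kit (ENSMUSG00000005672, chr5:75574916-75656722, plus strand, GRCm38) was abundant in every sample. Its level was 158, 177, 162 and 155 CPM in Vehicle samples 1 to 4, and 204, 214, 252 and 153 CPM in AG636 samples 1 to 4. AG636 samples 1 to 3 were above all Vehicle samples, whereas AG636 sample 4 was below all of them. The log2 fold change was 0.31 (SE 0.13, 95% interval 0.02 to 0.61, limma-voom adjusted p = 0.142). Without AG636 sample 4 it was 0.46 and passed the threshold (adjusted p = 0.0128), the single one of 20 alternative settings in which Kit did so. AG636 samples spread more widely (SD 41.0 CPM) than Vehicle samples (SD 9.62 CPM). Because cells were selected on surface cKit, these values describe Kit RNA within the gate, and the part of the gate in them was not tested.

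Flt3 (ENSMUSG00000042817, chr5:147330741-147400489, minus strand), the receptor found on early multipotent and dendritic progenitors, was at the limit of detection. It had 3, 1, 1 and 1 counts in Vehicle samples and 1, 5, 3 and 4 counts in AG636 samples. The totals of 6 and 13 counts leave no fold change to be read from this depth (two-sided exact permutation test of CPM, unadjusted p = 0.0571, where 0.0286 is the smallest p that 4 against 4 samples allow). The ligands of both receptors, which are usually made by other cells, were also examined. Kitl, the gene of stem cell factor, had at most 1 count in any sample, while Flt3l averaged 30.4 CPM in Vehicle and 37.6 CPM in AG636 (log2 fold change 0.29, limma-voom adjusted p = 0.263).

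Cd34 (ENSMUSG00000016494, chr1:194938819-194961279, plus strand) encodes a sialomucin on the surface of progenitors, mast cells and endothelium, and in AG636 it spread more widely than the other 4 tested regulators (coefficient of variation 126%). Its level was 10.1, 12.6, 9.44 and 2.43 CPM in Vehicle samples 1 to 4, from 69, 82, 61 and 16 counts. In AG636 samples 1 to 4 it was 4.51, 5.11, 35.6 and 4.05 CPM, from 29, 32, 223 and 28 counts. Thus 3 AG636 samples lay below 3 Vehicle samples, while AG636 sample 3 lay above all Vehicle samples and Vehicle sample 4 below all AG636 samples. With all samples the log2 fold change was 0.02 with a wide 95% interval of -1.50 to 1.54 (limma-voom adjusted p = 0.986). Without AG636 sample 3 it was -0.70 (adjusted p = 0.396), without Vehicle sample 4 it was -0.48 (adjusted p = 0.652), and without both it was -1.20 and passed the threshold as lower in AG636 (adjusted p = 0.0127). The call thus depends on these 2 libraries. They hold the highest and the lowest Cd34 value of all samples, so leaving them out could only move the fold change down. In such bulk samples, fewer cells that express a gene and less of its RNA per cell cannot be told apart.

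Some genes of other lists were, like Cd34, highest in AG636 sample 3 and lowest among Vehicle samples in sample 4. Cpa3, a mast cell carboxypeptidase, was at 285 CPM in AG636 sample 3 and at 38.1, 65.6 and 135 CPM in the other AG636 samples, with 34.4 CPM in Vehicle sample 4 and 42.4, 96.1 and 85.1 CPM in the other Vehicle samples. Cma1, a mast cell chymase, was at 277 CPM in AG636 sample 3 against 25.0 to 81.8 CPM in the other AG636 samples, and at 22.4 CPM in Vehicle sample 4 against 79.4 to 103 CPM. The whole list of mast cell and basophil genes was highest in AG636 sample 3 among AG636 samples (3750 CPM). Among Vehicle samples the list was lowest in sample 4 (2103 CPM), and AG636 sample 2 was lower still (1512 CPM). Not all genes of the list had this order. The tryptase gene Tpsb2 was highest among Vehicle samples in sample 4 (4.56 CPM). Il4 was at about the same level in AG636 samples 2, 3 and 4 (4.47, 4.47 and 4.48 CPM). Itga2b, a surface integrin of early progenitors and megakaryocytes, was likewise highest and lowest in these samples, with 35.9 CPM in AG636 sample 3 and 5.63 CPM in Vehicle sample 4. Further genes outside the mast cell list had the same order, among them Csf2rb (279 and 97.1 CPM), Fcgr3 (97.3 and 13.5 CPM) and Runx1 (348 and 217 CPM). Others, such as Myb, did not. The part of these genes, or of the cells that express them, in the Cd34 values was not tested.

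**Figure D3:**
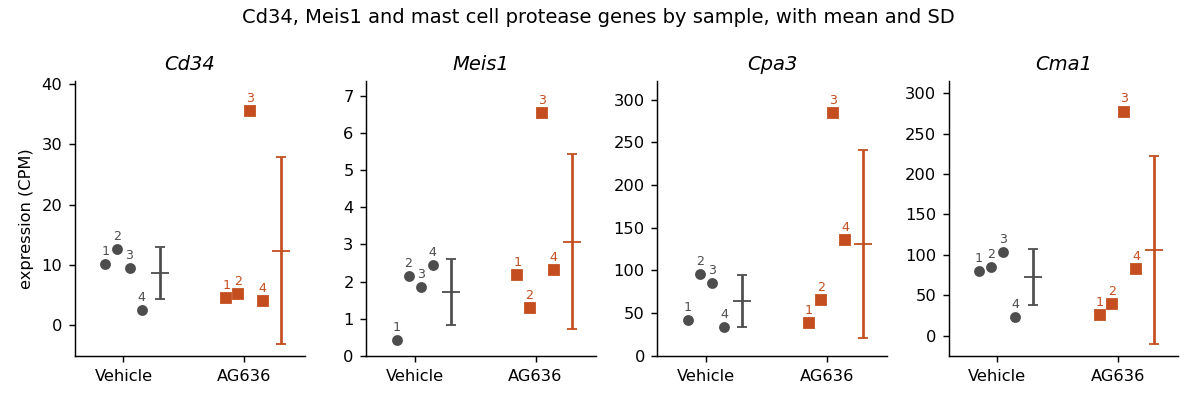
CPM of Cd34, Meis1, Cpa3 and Cma1 in each sample, numbered as in the labels, with the mean and SD of each group of 4 beside the points. AG636 sample 3 is the highest of all 8 samples in each panel, and Vehicle sample 4 is the lowest Vehicle sample for Cd34, Cpa3 and Cma1 but not for Meis1.

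The homeobox genes were close to silent. Hoxa9 (ENSMUSG00000038227, chr6:52223100-52231089, minus strand) had 0 counts in each of the 8 libraries, which allows up to 0.419 to 0.490 CPM of all counts in a library (3 counts of the total), with 95% Wilson upper bounds of 0.536 to 0.628 CPM, both for counting error only. Its relatives were nearly as silent. Of the 18 other Hox genes of the A and B clusters that were examined, 13 had 0 counts in every sample and the others had at most 3 counts in any sample. Their DNA-binding partners were expressed, with Vehicle means of 59.6 CPM for Pbx3, 41.3 CPM for Pbx2 and 40.5 CPM for Meis2, the paralogue of Meis1. None of the 7 tested partner genes passed the threshold.

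Meis1 (ENSMUSG00000020160, chr11:18879817-19018985, minus strand) was detected in every sample at few counts. It had 3, 14, 12 and 16 counts in Vehicle samples and 14, 8, 41 and 16 counts in AG636 samples. In CPM these were 0.437, 2.15, 1.86 and 2.43 in Vehicle, and 2.18, 1.28, 6.54 and 2.31 in AG636, so the groups overlapped and AG636 sample 3 was again the highest. The log2 fold change was 0.79 (SE 0.60, 95% interval -0.52 to 2.11, limma-voom adjusted p = 0.401). It was 0.25 without Vehicle sample 1, the lowest value among the settings, and 0.36 without AG636 sample 3, and it was above 0 in all 19 alternative settings that could test it. Exons of Meis1 share up to 1029 bases with Gm37818 on the same strand, which itself had 2 counts over all samples, and how reads there were assigned is not given in the sources used here. Hoxa9 shares up to 85 bases with Mir196b on the same strand. On the other strand, exons of Meis1, Myb, Cd34 and Mecom share up to 896, 268, 148 and 81 bases with other genes. Read assignment is not given for these either.

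Among the genes that control Hoxa9 and Meis1 in other leukaemias, 9 of 9 were tested and 1 passed, where 14.0% of all genes tested did. Men1, which encodes menin, a subunit of the MLL complexes, was at 59.4, 54.0, 49.8 and 60.4 CPM in Vehicle samples and fell to 33.3, 42.5, 37.8 and 34.8 CPM in AG636 samples (log2 fold change -0.59, SE 0.11, limma-voom adjusted p = 0.00711). The groups did not overlap, and the call held in all 20 settings that test it at this threshold. Kmt2a, the gene of MLL itself, averaged 153 CPM in Vehicle and 155 CPM in AG636 (adjusted p = 0.998), and Ezh2, a Polycomb methyltransferase, 366 and 399 CPM (adjusted p = 0.258).

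Promoter sequences around the annotated start sites are shown for the most abundant regulators, Myb and Kit, for the silent Hoxa9 and for Meis1, a selection made after the values were seen. They come from RefSeq on GRCm38.p6, lie mostly before the start, and run 5′ to 3′ on the gene's strand. Capitals mark matches, on either strand, to the RUNX motif TGTGGT, the ETS motif CCGGAAG, the MYB motif CAACTG, the GATA motif AGATAA, the MEIS motif TGACAG, the E-box motif CACGTG or the YY1 motif AAGATGG. The windows are chr10:21160935-21161234 for Myb, chr5:75574737-75575036 for Kit, chr6:52227321-52227620 for Hoxa9 and chr11:19018920-19019219 for Meis1.
Myb: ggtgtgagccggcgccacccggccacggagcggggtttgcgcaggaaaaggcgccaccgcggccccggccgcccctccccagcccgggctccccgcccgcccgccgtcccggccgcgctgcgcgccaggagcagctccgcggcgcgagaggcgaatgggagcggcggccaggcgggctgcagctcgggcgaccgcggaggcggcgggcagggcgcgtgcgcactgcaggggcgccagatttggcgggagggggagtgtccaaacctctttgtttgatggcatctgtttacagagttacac
Kit: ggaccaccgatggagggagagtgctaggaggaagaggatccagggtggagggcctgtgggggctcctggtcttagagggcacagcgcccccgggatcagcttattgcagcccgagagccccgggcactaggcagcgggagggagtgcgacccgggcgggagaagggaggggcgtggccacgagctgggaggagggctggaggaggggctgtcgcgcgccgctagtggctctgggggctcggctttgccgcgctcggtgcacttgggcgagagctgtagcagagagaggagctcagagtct
Hoxa9: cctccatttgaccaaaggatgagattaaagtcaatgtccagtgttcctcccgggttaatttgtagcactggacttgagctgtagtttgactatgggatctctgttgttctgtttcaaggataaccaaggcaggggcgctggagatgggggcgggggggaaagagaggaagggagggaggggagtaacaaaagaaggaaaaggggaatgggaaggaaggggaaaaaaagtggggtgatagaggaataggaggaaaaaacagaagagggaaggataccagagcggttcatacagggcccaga
Meis1: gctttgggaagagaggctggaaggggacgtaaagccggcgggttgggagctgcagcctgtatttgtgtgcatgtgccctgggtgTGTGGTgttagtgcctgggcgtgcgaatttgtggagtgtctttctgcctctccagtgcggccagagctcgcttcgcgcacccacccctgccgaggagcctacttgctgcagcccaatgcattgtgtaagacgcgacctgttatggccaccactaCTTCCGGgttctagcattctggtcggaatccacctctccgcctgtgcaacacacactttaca
The Meis1 window held the RUNX letters at -166 and the ETS letters at -12 from the start, and no searched motif was found in the windows of Myb, Kit, Hoxa9, Cd34 or Hlf. Meis1 was the single gene of the 9 with the RUNX letters in a window, while 16.8% of 32851 such windows in RefSeq hold them (ETS 8.86%). Flt3 held an E-box (7.15% of all windows), 1 of 3 Erg windows the GATA and MEIS letters (11.2% and 19.2%), and 1 of 2 Mecom windows the MEIS letters. The MYB letters (13.7%) and YY1 letters (6.34%) were in none. These matches describe letters only.

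Myb (ENSMUSG00000019982, chr10:21124935-21160984, minus strand) was the most abundant of the 9. Its level was 388, 503, 438 and 459 CPM in Vehicle samples 1 to 4, and 681, 717, 453 and 465 CPM in AG636 samples 1 to 4. AG636 samples 1 and 2 were above every Vehicle sample, while AG636 samples 3 and 4 lay inside the Vehicle range. The log2 fold change was 0.35 (SE 0.16, 95% interval 0.00 to 0.69, limma-voom adjusted p = 0.162), and over the 20 settings it ranged from 0.23 to 0.49 with adjusted p from 0.0639 to 0.345. Of its family, Mybl2, which acts in the cell cycle, averaged 64.9 ± 4.75 CPM in Vehicle and fell to 46.8 ± 11.2 CPM in AG636 (log2 fold change -0.49, limma-voom adjusted p = 0.0489, past the threshold in 5 of 20 settings). The co-activators Crebbp and Ep300 averaged 182 and 103 CPM in Vehicle and 207 and 112 CPM in AG636 and did not pass.

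**Figure D4:**
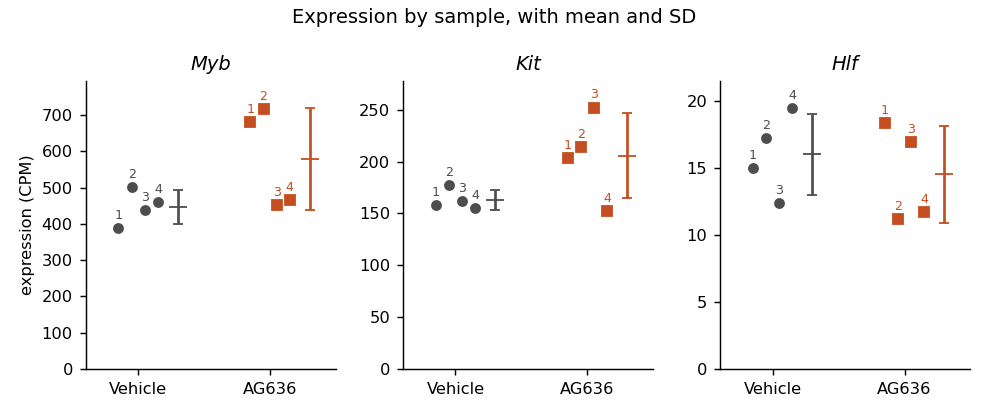
CPM of Myb, Kit and Hlf in each sample, numbered as in the labels, with the mean and SD of each group of 4 beside the points. The AG636 samples split in 2 for Myb, with samples 1 and 2 near 700 CPM and samples 3 and 4 within the Vehicle range, whereas for Kit sample 4 alone is at the Vehicle level. Hlf overlaps between the groups.

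Hlf (ENSMUSG00000003949, chr11:90336536-90390895, minus strand), a PAR bZIP factor that marks stem cells, was at 15.0, 17.2, 12.4 and 19.5 CPM in Vehicle and 18.4, 11.2, 16.9 and 11.7 CPM in AG636. The groups overlapped, with a log2 fold change of -0.16 (SE 0.20, 95% interval -0.61 to 0.29, limma-voom adjusted p = 0.646). Its relative Tef, of the same bZIP family, was at 59.3, 59.8, 62.1 and 54.3 CPM in Vehicle and fell to 44.2, 31.1, 49.6 and 45.1 CPM in AG636, with no overlap (log2 fold change -0.49, SE 0.13, limma-voom adjusted p = 0.0364, past the threshold in 13 of 20 settings). Dbp, the third member, averaged 5.10 and 3.75 CPM (adjusted p = 0.454).

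Erg (ENSMUSG00000040732, chr16:95359169-95586593, minus strand), an ETS factor of stem cells and endothelium, had 5, 3, 0 and 2 counts in Vehicle and 1, 1, 3 and 0 counts in AG636. Mecom (ENSMUSG00000027684, chr3:29951296-30548008, minus strand), whose product Evi1 maintains stem cells, had 1, 0, 1 and 2 counts in Vehicle and 2, 3, 4 and 0 counts in AG636. Neither gave a difference at this depth (two-sided exact permutation tests of CPM, unadjusted p = 0.429 and 0.2). Other factors of the stem cell group that binds DNA together with Erg were abundant in Vehicle, with means of 370 CPM for Gata2, 348 CPM for Tal1, 344 CPM for Lmo2, 263 CPM for Runx1, 144 CPM for Fli1 and 62.0 CPM for Lyl1. Erg was thus the single gene of this group of 7 under the detection filter. None of the 15 tested genes of that list passed the threshold. Closest to it was Ikzf2, a lymphoid and stem cell zinc finger factor, at 63.8 CPM in Vehicle and 128 CPM in AG636 (log2 fold change 0.96, limma-voom adjusted p = 0.0523, past the threshold in 11 of 20 alternative settings), and Gfi1b passed in 4. Of the 12 ETS relatives of Erg, all tested, none passed.

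Few of the pathway genes around the regulators passed the threshold. Of 153 genes in 10 lists, 111 were tested and 8 passed the threshold (7.21%, beside 14.0% of all genes tested). In AG636, 2 of them rose and 6 fell. Their median log2 fold change was 0.00, and that of all tested genes -0.01. With library size alone, 10 were called higher and 2 lower. None of the 22 tested genes of proximal Kit and Flt3 signalling passed. The 4 smallest p-values there belonged to Jak2, Cbl, Pik3r1 and Ptpn11, with log2 fold changes of 0.41, 0.27, 0.30 and -0.19 and limma-voom adjusted p from 0.0528 to 0.145. Jak2 passed in 12, Cbl in 9, Pik3r1 in 5 and Ptpn11 in 0 of 20 alternative settings.

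Of the Ras and MAPK genes, 18 of 20 were tested and 2 passed, both lower, where 14.0% of all genes tested passed and 8.49% passed as lower. Nras was at 203, 209, 214 and 203 CPM in Vehicle and fell to 183, 151, 167 and 179 CPM in AG636 (log2 fold change -0.29, limma-voom adjusted p = 0.0408), and Hras averaged 35.3 CPM and fell to 24.9 CPM (log2 fold change -0.52, adjusted p = 0.0420). These calls held in 6 and 8 of 20 settings. Whether reads of the introduced Nras, which both groups carry, count to the mouse gene was not tested. The feedback genes of the pathway did not pass, with Dusp6 at 9.03 CPM in Vehicle and 14.1 CPM in AG636. Of the cytokine feedback genes (Socs, Cish and Pim genes), 7 of 8 were tested and none passed.

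Of the 26 other surface markers of stem and progenitor cells, 14 were tested and 3 passed, where 14.0% of all genes tested did. Cd44, a hyaluronan receptor that anchors leukaemic cells in the marrow, was at 151, 143, 147 and 139 CPM in Vehicle and rose to 187, 202, 216 and 202 CPM in AG636 (log2 fold change 0.48, SE 0.08, limma-voom adjusted p = 0.00454), a call that held in all 20 settings. Itga4, a subunit of the VLA-4 integrin, averaged 271 ± 11.9 CPM and rose to 423 ± 107 CPM (log2 fold change 0.60, adjusted p = 0.0313, past the threshold in 14 of 20 settings). Both encode adhesion receptors. Podxl, a sialomucin of the Cd34 family, was at 419, 342, 390 and 166 CPM in Vehicle and fell to 82.9, 112, 154 and 174 CPM in AG636 (log2 fold change -1.30, SE 0.30, adjusted p = 0.0174), with Vehicle sample 4 again the lowest of its group and below AG636 sample 4. The stem cell receptor gene Procr had 0 counts in all samples, and Ly6a, which encodes Sca-1, had at most 14 counts. Ly6a averaged 0.49 CPM in Vehicle and 1.31 CPM in AG636, with overlapping groups and too few counts to be tested. The study reports more Sca1 protein on the surface of leukaemic cells of this model after AG636.

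**Figure D5:**
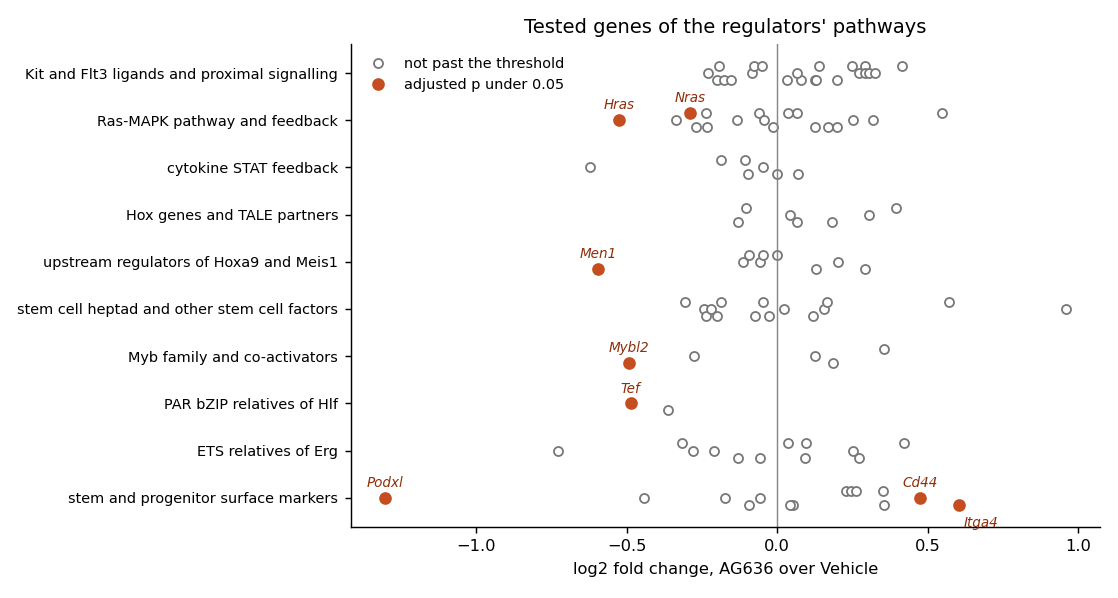
Log2 fold change in AG636 over Vehicle of the 111 tested pathway genes, 1 point a gene, by list. Filled points had an adjusted p under 0.05 and are named. Most points lie within 0.5 of 0, with Podxl farthest to the left and no called gene among the signalling, cytokine feedback, Hox partner, heptad and ETS lists.

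The genes whose log2 CPM followed each regulator most closely over the 8 samples were sought among 5285 abundant genes, as a description of samples that share libraries and groups. For Kit these were Copg2, Fam199x and Gm26740 (Pearson r = 0.969, 0.962 and 0.959). Copg2, which encodes a coatomer subunit, was at 47.8, 49.5, 48.0 and 45.6 CPM in Vehicle and at 60.2, 60.5, 65.4 and 48.4 CPM in AG636, with AG636 sample 4 again the lowest of its group. For Myb they were Bicral, Nipbl and Crybg1 (r = 0.988, 0.963 and 0.963), and for Cd34 Pgap2, Slc7a8 and Atp6v0b (r = 0.970, 0.966 and 0.966); Myb and Cd34 were added to this search after their values were seen. Slc7a8, an amino acid transporter gene, was at 163 CPM in AG636 sample 3 against 24.4 to 28.3 CPM in the other AG636 samples, and at 18.0 CPM in Vehicle sample 4 against 72.6 to 81.2 CPM in the other Vehicle samples. These correlations came from the same 8 libraries and show no shared function or control.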

How the data were processed

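RNA of sorted cells was measured in 8 samples. The authors deposited raw read counts per gene, made from reads trimmed with cutadapt 1.9.1, mapped to GRCm38 with HISAT2 2.0.4 and counted with featureCounts of Subread 1.5.0-p3 (versions from the submitters' processing notes). Use of strand and the treatment of reads mapping to several places or genes are not given in the sources used here. All count columns matched 1 sample title each. Genes were kept by filterByExpr (minimum count 10), scaled by TMM factors and compared by limma-voom with group as the only term (limma 3.58.1, edgeR 4.0.16, R 4.3.3), two-sided, with Benjamini-Hochberg adjustment over 10911 genes and a threshold of 0.05. Symbols came from a name table, which left 115 of 54838 genes without one. No pair of replicates agreed within sampling noise by a chi-square test. Alternatives included edgeR's quasi-likelihood test, DESeq2 1.42.0 and left-out samples. The fit was tested on simulated data. The members and gene lists were chosen with earlier results of these data known. By rule, all 9 genes, the called genes of each pathway list (at most 4), Kitl, Flt3l and the 3 genes most correlated with Kit were named; others were named after their values were seen. Count depths give counting error only. Many listed genes are given only within counts and sums, and some are not reported here.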

Additional observations from a re-analysis of the deposited data

Results flagged for a closer look

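In groups of 4 samples, a sample was taken as far from the others where its gap to the nearest one exceeded Dixon's 95% critical share of the group's whole range. Among 32 combinations of a gene or marker list with a group, 2 met this, where chance gives about 1.6. Cd34 in AG636 sample 3 was at 5.17 on the log2 CPM scale, far above the other AG636 samples. The summed level of the leukocyte genes Ptprc, Laptm5, Coro1a and Cd53 in Vehicle sample 4 was at 9.53 on the scale log2(sum of CPM + 1), from a sum of 741 CPM against 948 to 960 CPM in the other Vehicle samples.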

How the results depend on the processing

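Of the 9 regulators, 0 passed the threshold in every alternative that keeps at least 7 samples except 1, and leaving out 1 sample gave 0 to 1 (Kit, without AG636 sample 4). Without Vehicle sample 4 and AG636 sample 3 together, 1 passed (Cd34). The log2 fold change of Cd34 turned from 0.02 to -0.35 with sample quality weights, -0.48 without Vehicle sample 4, -0.70 without AG636 sample 3 and -1.20 without both, and with 1 sample left out it ranged from -0.70 to 0.36. Over all genes, 1523 calls became 435 at an adjusted p under 0.01 and 216 when the absolute log2 fold change also had to reach 1, and 688 to 1706 with 1 sample left out (798, 918, 688 and 1010 without Vehicle samples 1 to 4). Of the pathway genes, 8 calls became 15 with DESeq2, 5 without a filter, 2 at an adjusted p under 0.01, 1 when that fold change also had to reach 1, and 2 to 15 with 1 sample left out (2 without Vehicle sample 1 or 3, 3 without Vehicle sample 2 or 4, 4 and 5 without AG636 samples 1 and 2, and 15 without AG636 sample 4). The causes were not tested. Other scalings moved the median log2 fold change of all genes from -0.01 to at most 0.06.

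With the replicate number as a block, 1446 genes, 0 of the 9 regulators and 9 pathway genes were called. The deviations of samples with the same number correlated at -0.14, 0.01, 0.20 and 0.14, and not every sample correlated best with its own number, so the numbers were not taken to pair the samples. Depth limits Flt3, Erg, Mecom and Hoxa9, with 0 to 5 counts a sample.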
